A study of Mus musculus with 4 samples.

Results

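A set of 10 genes of the machinery that carries proteins into mitochondria were followed in spleen cells of young mice, namely Timm8a1, Timm8b, Timm9, Timm10, Timm13, Timm17a, Timm23, Timm50, Tomm40 and Tomm5. They were taken by gene symbol from the transcript clusters of the array, a cluster being the set of probes that reports 1 transcript unit, and where a symbol had several, the brightest on average was used. Of the 10 genes, 9 had a cluster of their own, among 30184 symbols in all, and 7 of these were among the 10615 genes tested, which reached a signal of 100 on 2 or more arrays. The only cluster that carries Tomm5 also carries another symbol, Gm8069, so no value is given for Tomm5, a small subunit of the outer membrane channel. The genes were chosen by their lower signals in the offspring from BBP-exposed dams, which earlier results of these data had shown, so those differences are given as a description, with no test.

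Splenocyte RNA of 3-week-old DBA/1 mice was hybridised to 4 Clariom D arrays, 1 for each sex and maternal exposure. The exposed dams drank water with 3 μg/ml benzyl butyl phthalate (BBP, a plasticizer) from 1 week before mating until weaning, and control dams drank normal water. The BBP pools held RNA of 4 males and 6 females and the control pools that of 4 males and 12 females. The exposed animals were the dams, and no source used here says from which litters the pups came, so litter and exposure cannot be told apart. Each value is 1 pool, the arrays carry no replicate within a sex, and their number limits the precision of every value. Log2 BBP/control is the log2 ratio of the BBP pool to its control pool within a sex, and these 2 comparisons are called female pair and male pair.

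Most mitochondrial proteins are encoded in the nucleus, made in the cytosol and imported as precursors. The TOM complex of the outer membrane is the entry gate. The small TIM proteins escort hydrophobic precursors through the intermembrane space, the TIM22 complex inserts carrier proteins into the inner membrane, and the TIM23 complex moves precursors with a cleavable presequence across it, with the heat shock protein Hspa9 as motor in the matrix. Lymphocytes enlarge their mitochondria when they are activated and divide, and maturing red cells need mitochondria for heme synthesis until they discard them.

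All 9 measured genes had lower signals with BBP than without it in both pairs, where 51.6% of all genes tested did. The median log2 BBP/control of the 9 genes was -0.23 for females and -0.64 for males, and that of all genes tested was -0.10 and -0.15. The male median is the value of Timm13, a dim gene that was not among the genes tested. For the 4 genes that passed a minimum signal of 200, the medians were -0.30 and -0.77. The values ranged from -1.07 (Timm8a1) to -0.09 (Timm9) in females and from -1.003 (Timm8a1) to -0.45 (Timm9) in males. Timm8a1 alone was at least 2-fold lower in both pairs, as 0.546% of all genes tested were. For all 9 genes both control signals lay above both BBP signals, without overlap, which held for 39.9% of all genes tested. Since the choice of the genes used this contrast, nothing is read from these counts.

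**Figure D1:**
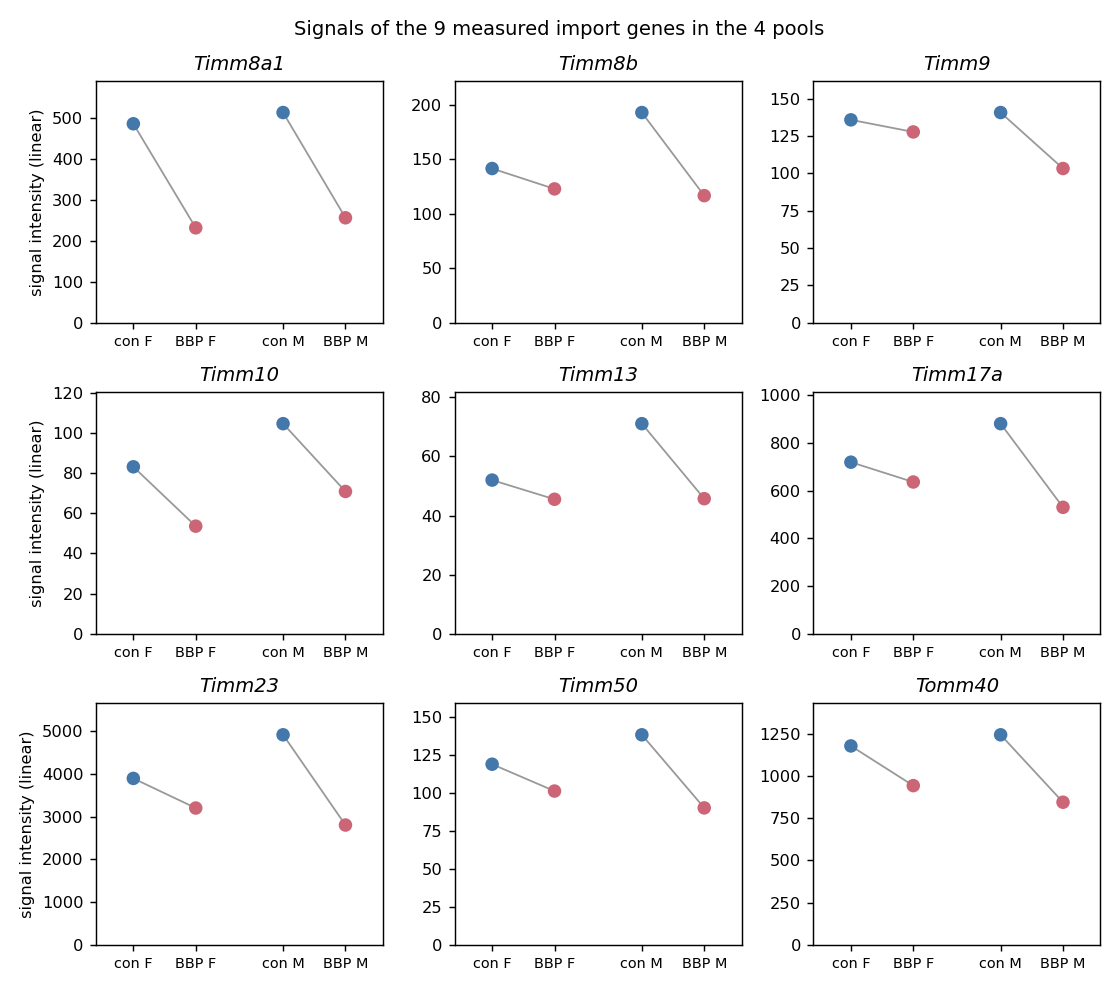
Signal intensity (linear axis from 0) of the 9 measured import genes in the 4 pools, with 1 point for each pool and a line joining the control (con) and BBP pools of 1 sex (F, female; M, male). The control male pool is the highest point in all 9 panels, and Timm8a1 has the steepest lines in the female pair, from 486.5 to 231.8.

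Among the small TIM proteins, Timm8a1 and Timm13 form 1 escort complex and Timm9 and Timm10 another, and Timm8b is a close relative of Timm8a1, whose human counterpart is mutated in deafness-dystonia syndrome. The Timm8a1 signal was 486.5 in control females, 231.8 in BBP females, 514.0 in control males and 256.4 in BBP males. The log2 BBP/control of -1.07 and -1.003 was nearly the same in both sexes. Of all genes tested, 1.17% had a lower mean log2 BBP/control than Timm8a1. Timm8b had signals of 141.4 in control females and 122.7 in BBP females, and of 192.8 in control males and 116.5 in BBP males. Its log2 BBP/control was thus -0.20 for females and -0.73 for males, with the control male pool standing above the other 3.

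Timm9 had the smallest mean difference, with signals of 135.8 in control females, 127.7 in BBP females, 140.7 in control males and 103.2 in BBP males. Its log2 BBP/control of -0.09 in females equals the median of all genes tested to within 0.01, turned to 0.03 when the arrays were scaled to the same median, and was -0.45 in males. Timm10, the partner of Timm9, had 83.2 and 53.6 in control and BBP females and 104.7 and 70.9 in control and BBP males, a log2 BBP/control of -0.63 and -0.56. Timm13 had 52.0 and 45.5 in females and 71.1 and 45.7 in males, a log2 BBP/control of -0.19 and -0.64. These latter genes are dim, and neither was among the genes tested. The median of the 5222 negative control features was 51.1 to 64.1 on the 4 arrays. The Timm13 signal lay below this median on 3 arrays and that of Timm10 on 1, so their ratios are uncertain. The 95th percentile of these features was 671.2 to 904.2. Only Timm23 lay above that percentile on all 4 arrays, Tomm40 did so on 3, Timm17a on 2 and the other 6 genes on none.

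The members of the TIM23 complex were Timm17a and Timm23, which build the channel in the inner membrane, and Timm50, the receptor that takes over precursors from the outer membrane. Timm17a had a signal of 719.5 in control females, 636.3 in BBP females, 881.1 in control males and 530.2 in BBP males, with a log2 BBP/control of -0.18 and -0.73. Timm23 had 3894.4 and 3201.0 in control and BBP females and 4915.0 and 2803.2 in control and BBP males, with a log2 BBP/control of -0.28 and -0.81. Both genes, Timm23 by its brightest cluster, had the same order of the 4 pools, with control males highest and BBP males lowest. Timm50 had 119.1 and 101.4 in females and 138.5 and 90.3 in males, with a log2 BBP/control of -0.23 and -0.62 and the same order of pools. Tomm40, which forms the pore of the outer membrane gate, had 1177.8 in control females, 942.7 in BBP females, 1243.7 in control males and 844.4 in BBP males. Its log2 BBP/control was -0.32 and -0.56, and its 4 pools had the same order too.

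For Timm8a1 and Timm23 the cluster with the highest mean carries chromosome 10 in its identifier, while RefSeq places the genes on chromosomes X and 14. Each gene also has a cluster whose identifier carries the RefSeq chromosome. Of 30125 clusters with a chromosome in both sources 99.7% had the same one and 100 did not, and no source used here says which transcripts the clusters on chromosome 10 detect. The Timm8a1 cluster on chromosome X had signals of 124.5 and 95.3 in control and BBP females, and 159.8 and 93.0 in control and BBP males. Its log2 BBP/control was -0.39 and -0.78, so that its mean over both pairs was -0.58 in place of -1.04, and 9.64% of all genes tested had a lower mean. The Timm23 cluster on chromosome 14 had 767.1 and 665.2 in females and 925.2 and 696.7 in males, with a log2 BBP/control of -0.21 and -0.41, and here the BBP females and not the BBP males were lowest. With the clusters on the RefSeq chromosome, all 9 genes were still lower in both pairs and 0 of them were 2-fold lower in both. The 7 genes other than Timm8a1 and Timm23 had a median log2 BBP/control of -0.20 in females and -0.62 in males.

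**Figure D2:**
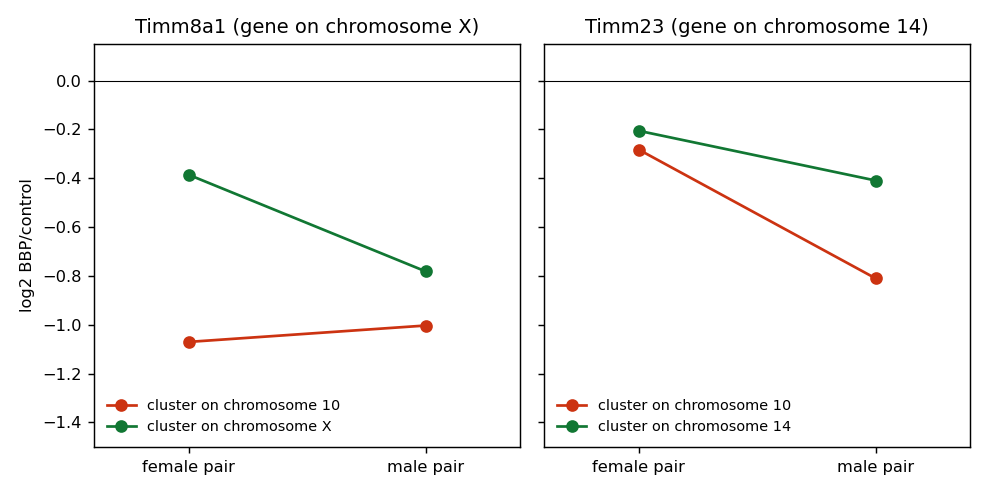
Log2 BBP/control (vertical axis) in the female and male pairs for the 2 transcript clusters of Timm8a1 and of Timm23, with 1 point for each pair of pools and lines joining the points of 1 cluster. The clusters on chromosome 10, which have the higher signals, lie lower than the clusters on the chromosome of the gene, most clearly for Timm8a1 in females (-1.07 against -0.39).

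Sequences upstream of the start site were searched for 3 motifs of factors that bind promoters of nuclear genes for mitochondrial proteins. These were the E-box CACGTG, the motif of nuclear respiratory factor Nrf1 (GCGC and TGCGC with any 1 base between them), and the ETS motif CCGGAAGT that GABP binds. The 250 bases before 1 transcript start of each of the 9 genes were read on both strands from RefSeq (GRCm38.p6), positions are counted back from that start, and the motifs share no positions there. For Timm9 and Tomm40 the outermost end of the gene lies 33 and 13 bases further out, inside the window. CACGTG was found upstream of Timm8a1, from -236 to -231, and of Timm9, from -58 to -53, that is in 2 of 9 genes, and in 6.05% of 27025 promoter windows of that length. CCGGAAGT was found upstream of Timm23 as its reverse complement ACTTCCGG, from -48 to -41, and in 2.93% of all windows. The Nrf1 motif was found in 0 of the 9 windows and in 3.86% of all. With the brightest clusters, Timm8a1 and Timm9 had the lowest and the highest log2 BBP/control in females, while with the Timm8a1 cluster on chromosome X, where this window lies, Timm10 was the lowest. The 3 windows with a match are shown, as they hold the letters found, 5′ to 3′ with the matching letters in capitals, at chrX:134541671-134541920, chr12:71136709-71136925 (without the bases inside the gene) and chr14:32201892-32202141, all on the minus strand.
Timm8a1: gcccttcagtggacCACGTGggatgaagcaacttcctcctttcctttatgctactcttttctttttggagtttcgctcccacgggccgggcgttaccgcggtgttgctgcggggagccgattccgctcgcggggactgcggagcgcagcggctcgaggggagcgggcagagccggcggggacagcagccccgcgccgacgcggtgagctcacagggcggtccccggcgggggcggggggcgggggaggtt
Timm9: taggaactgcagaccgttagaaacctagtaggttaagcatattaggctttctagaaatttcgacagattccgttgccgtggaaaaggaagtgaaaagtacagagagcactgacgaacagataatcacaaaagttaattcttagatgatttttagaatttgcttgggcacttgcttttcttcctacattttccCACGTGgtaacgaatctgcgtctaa
Timm23: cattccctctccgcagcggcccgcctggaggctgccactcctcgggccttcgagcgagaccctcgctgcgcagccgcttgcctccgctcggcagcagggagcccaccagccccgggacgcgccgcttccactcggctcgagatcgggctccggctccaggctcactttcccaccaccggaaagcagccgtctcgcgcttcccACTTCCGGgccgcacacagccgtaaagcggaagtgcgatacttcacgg

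The log2 ratio was lower in the male than in the female pair for 7 of the 9 genes, as for 59.6% of all genes tested. Timm8a1 and Timm10 were the exceptions, with log2 ratios of -1.07 and -0.63 in females against -1.003 and -0.56 in males. With the clusters on the RefSeq chromosome Timm8a1 was no exception, and the count was 8 of 9. The control male pool had the highest signal of the 4 pools for all 9 genes, as for 40.7% of all genes tested. Between the control pools, males were above females by a log2 difference of 0.05 (Timm9) to 0.45 (Timm13), with a median of 0.29, and all 9 genes were higher in males, where 53.4% of all genes tested were. Between the BBP pools the log2 difference of males to females ran from -0.31 (Timm9) to 0.40 (Timm10), with a median of -0.16, and 6 of the 9 genes were lower in males, where 57.7% of all genes tested were. The sexes thus differed in opposite directions in control and BBP pools for these 6 genes. With the clusters on the RefSeq chromosome, Timm23 was not one of them (0.07 between the BBP pools), while Timm8a1 was (0.36 between the control and -0.04 between the BBP pools). Whether the log2 ratio differs between the sexes could not be tested, because 1 array per sex and exposure leaves no spread for it.

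The difference between the sexes itself was not used to choose the genes and was tested with limma over both exposures. None of the 7 genes tested passed (0 of 7, and 0 at an unadjusted p of 0.05), where 0.622% of all genes tested passed and 15.5% did so unadjusted. The log2 difference of males to females was between -0.13 ± 0.16 (SE; Timm9) and 0.19 ± 0.18 (SE; Timm8b), and the limma adjusted p values ran from 0.679 to 0.980. With 4 pools and 1 residual degree of freedom, these standard errors allow differences of the same size as the estimates. Each estimate is the mean of the differences in the control and BBP pools, which had opposite signs for all genes tested but Timm8a1. For Timm17a, 0.29 and -0.26 gave 0.01. A small estimate thus does not mean that the sexes were alike within an exposure.

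**Figure D3:**
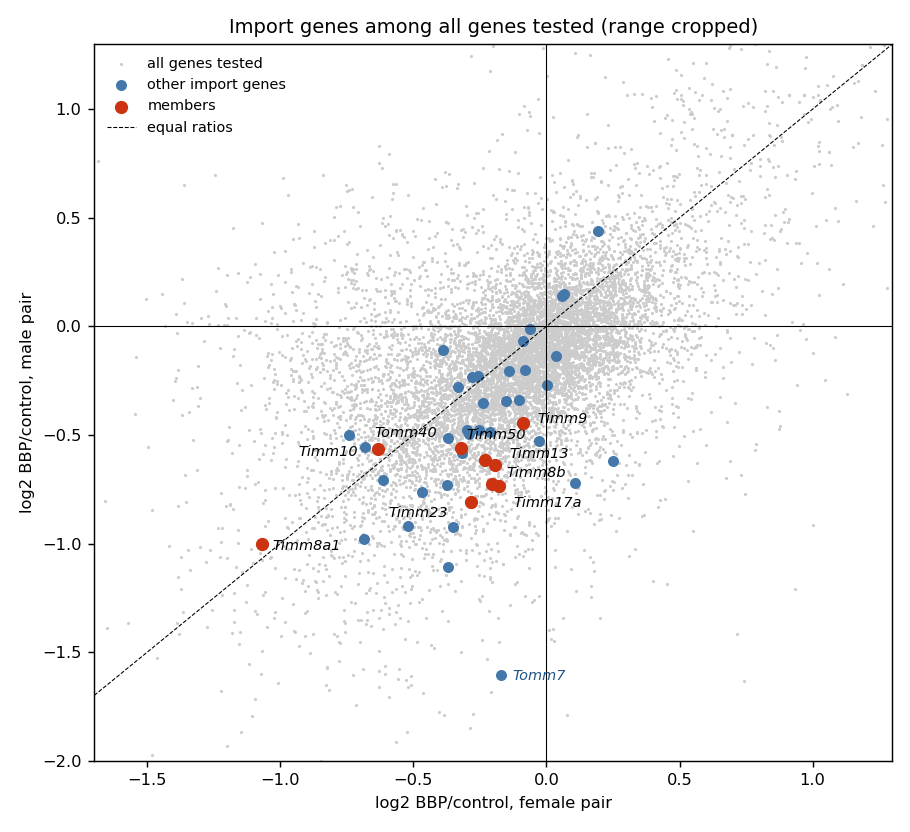
Log2 BBP/control in the female pair (horizontal axis) against the male pair (vertical axis) for all genes tested (grey), the other import genes (blue) and the 9 measured genes (red), with lines at 0 and a dashed line where both ratios are equal. All 9 red points lie in the lower left field, 7 of them under the dashed line, and 172 of the 10615 genes tested lie outside the plotted range.

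Other genes of the import pathway were listed with their roles, without regard to their signals, although earlier results of these data were known. Of 39 genes, 35 had a cluster of their own and 29 were among the genes tested. Tomm6, Timm10b and Dnajc19 lay only in clusters with several symbols, and Immp2l had no cluster. The signal was lower in both BBP pools for 28 of the 35 genes and higher in both for 3, where 51.6% and 19.9% of all genes tested were. Of the 35, 6 were under 100 on all arrays and so not among the genes tested. These were the 3 higher in both and, of the 28 lower in both, Tomm40l, Chchd4 and Gfer. The shares of all genes cover the genes tested alone. The medians of log2 BBP/control were -0.25 in females and -0.48 in males, and 24 of the 35 genes had the lower ratio in males. In the limma test of exposure 0 of 29 genes passed in either direction, with adjusted p values from 0.0718 to 0.859, where 1.29% of all genes tested passed as lower and 1.52% as higher, 2.81% in all. At an unadjusted p of 0.05, 12 of the 29 were lower and 0 higher, where 21.1% and 5.91% of all genes tested were. Mipep, a presequence protease and one of these 12, and Romo1 of the TIM23 complex entered the test only through their control pools, with both BBP signals under 100. These genes work in the same pathway as the 9 that were chosen for lower signals, so their direction is not independent evidence.

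Of the other genes listed under the outer membrane gate, 5 of 7 were lower in both pairs. Tomm40l, one of these 5, was dim, with signals from 55.6 to 80.9, and was not among the genes tested. Tomm22, the central receptor, had signals of 1684.7 and 1102.1 in control and BBP females, and 2092.5 and 1281.1 in control and BBP males, and its log2 difference of -0.66 ± 0.13 (SE) had the lowest limma adjusted p of the list, 0.0718. Tomm7, which regulates the stability of the complex, had 266.5 and 236.9 in females and 892.9 and 293.7 in males. The control male array stands apart for Tomm7, its female and male log2 ratios were -0.17 and -1.60, and the limma adjusted p was 0.190. The receptor Tomm70a had 3018.2 and 2532.5 in females and 4065.4 and 2922.2 in males, with a limma adjusted p of 0.198. The presequence receptor Tomm20 had 468.4 and 468.5 in females and 678.4 and 563.0 in males, so that the female pools hardly differed. Its relative Tomm20l was dim, with signals from 17.3 to 23.4, and was one of the 3 genes higher in both BBP pools.

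The sorting and assembly machinery places barrel proteins such as Tomm40 into the outer membrane, and 3 of its 4 genes were lower in both pairs. Samm50, its core, had 2008.0 and 1251.7 in females and 2031.6 and 1384.3 in males, with a limma adjusted p of 0.0787. Mtx2 had 564.4 and 436.7 in females and 845.2 and 391.5 in males, with a limma adjusted p of 0.110, and its control male signal was again the highest. Mtx3 was higher in both BBP pools, from 79.6 to 82.9 in females and from 82.3 to 90.6 in males. The disulfide relay oxidises the small TIM proteins in the intermembrane space, and its genes Chchd4 and Gfer were both dim and not among those tested. Chchd4 went from 60.4 to 46.8 in females and from 50.6 to 35.4 in males, and Gfer from 72.0 to 44.8 and from 94.7 to 48.0. Both BBP signals of each lay below the median negative control of their array, so no ratio is given. Timm8a2, a relative of Timm8a1, had 25.6 and 29.3 in females and 18.2 and 24.7 in males, below the median negative control on all 4 arrays.

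Among the inner membrane complexes, 3 of 4 other TIM23 genes, 2 of 3 TIM22 genes and 4 of 5 motor genes were lower in both pairs. Timm17b, the relative of Timm17a in the TIM23 complex, had 234.5 and 169.8 in females and 312.5 and 184.0 in males, with a limma adjusted p of 0.0797. Timm44, which tethers the motor to the TIM23 channel, had 396.7 and 379.7 in females and 393.6 and 390.5 in males, a log2 difference of -0.04 ± 0.11 (SE) with the highest limma adjusted p of the list, 0.859. Timm22, the channel of the carrier translocase, had 134.1 and 110.5 in females and 136.5 and 116.0 in males, with a limma adjusted p of 0.289. Hspa9 had 3720.3 and 2952.4 in females and 4209.2 and 3469.9 in males, with a limma adjusted p of 0.234. All 5 measured presequence proteases and all 3 genes for folding and membrane insertion were lower in both pairs. Hspe1, the co-chaperone of the matrix folding chamber, had 1020.8 and 712.7 in females and 1462.6 and 774.1 in males, with a limma adjusted p of 0.0770.

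Marker lists of cell types and of proliferation were set beside the import genes. In RNA of whole spleen cells fewer cells of a type and less RNA per cell cannot be told apart, so these lists do not measure cell composition. All 10 measured proliferation markers, of 11 listed, were lower in both pairs, with a female median of -0.61 and a male median of -0.83, and 2 of them passed the limma test as lower, where 51.6% of all genes tested were lower in both pairs and 1.29% passed as lower. Their summed signal was 79907 in control females, 58691 in BBP females, 85702 in control males and 57528 in BBP males. Mki67, the brightest of them, gave 52902.8, 42283.8, 52492.1 and 40322.3 of these. The authors had already listed Rrm2 and Mcm2, and the erythroid marker Klf1, as more than 2-fold lower in these same pools. They also reported RT-PCR of Klf1 in individual mice, where it was lower by trend. Calls in these marker lists are thus not independent evidence. Erythroid markers were measured for 10 of 12 genes, of which 7 were lower in both pairs and 3 had opposite signs, with a female median of -0.35 and a male median of -1.22, and 2 passed the limma test as lower. Klf1 and Gata1 of this list entered the test only through their control pools, with both BBP signals under 100. Without the sex term 0 genes were called for exposure in all, and 0 also when any 1 pool was left out, where that term had to be dropped. The summed signal of the erythroid markers was 51160 in control females, 60258 in BBP females, 107478 in control males and 58280 in BBP males. In control and BBP females Alas2 gave 17096.2 and 29441.7 of it and Slc4a1 16418.8 and 18594.3. These brightest markers were higher in BBP females, so the female sum does not describe the 7 markers that were lower in both pairs. All 10 erythroid markers were highest in the control male pool, where 40.7% of all genes tested were. So were all 9 import genes, 22 of the 35 other import genes and 8 of the 10 measured proliferation markers. The defining markers of B cells (5 of 6 measured) had medians of -0.21 and -0.37, those of T cells (6 of 6) of 0.48 and 0.14, and those of myeloid cells (5 of 5) of -0.56 and -0.36, and 0 of these 16 genes passed the limma test, although 3 were lower and 2 higher at an unadjusted p of 0.05, where 21.1% and 5.91% of all genes tested were. The 3 measured markers of pancreas and the 4 of stroma and mesothelium were under 100 on all arrays. The part of the proliferating and erythroid cells in the lower signals of the import genes was not tested.

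**Figure D4:**
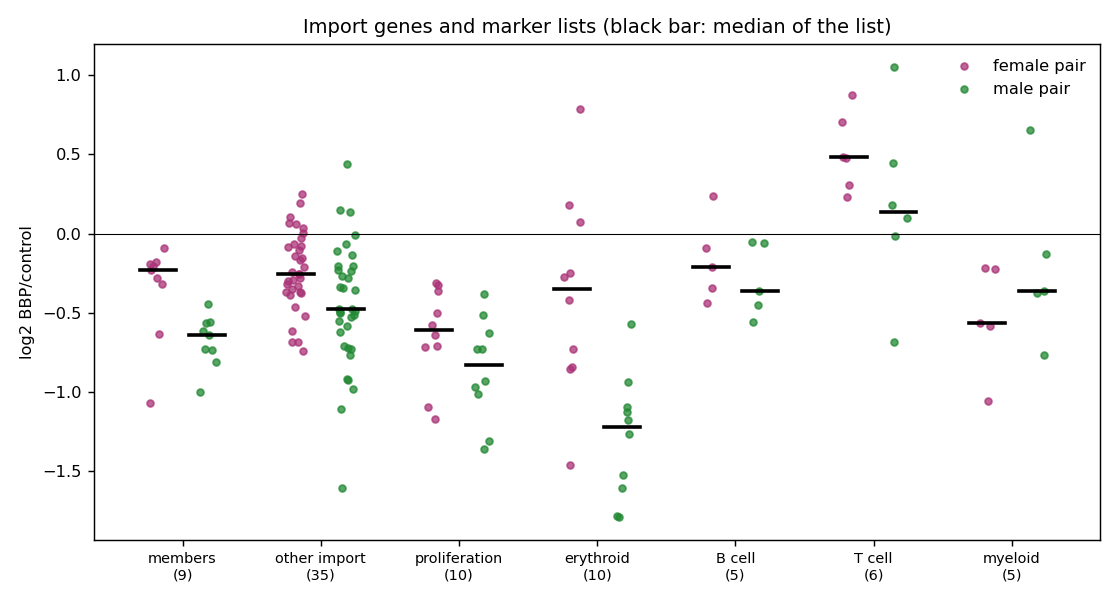
Log2 BBP/control (vertical axis) of each gene of the import and marker lists, with the number of measured genes in brackets, the female pair in purple, the male pair in green and the median of each list as a black bar. Medians of the 9 import genes were -0.23 and -0.64, those of the proliferation markers -0.61 and -0.83, and those of the erythroid markers -0.35 and -1.22. The male median of the import genes is the value of Timm13, a dim gene.

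The profile of the 9 import genes over the 4 arrays was taken as the median of their log2 signals, each centred on its own mean. Timm23 lay nearest to this profile, at a Euclidean distance of 0.0735, and Timm8a1 farthest, at 0.590. Both female values of the profile are those of Timm23 itself, by its brightest cluster, so its nearness is in part built in. The control male value is that of Timm13, which was dim and not among the genes tested, and the BBP male value that of Timm50. Among 7602 other protein-coding genes tested, 34 lay within 0.1 of it. The 5 nearest were Glt8d1, at 0.0360, Gpx1, a glutathione peroxidase, at 0.0386, Ctbp1, a transcriptional corepressor, at 0.0398, Yars2, the mitochondrial tyrosyl-tRNA synthetase, at 0.04995, and Cdc42ep3, an effector of the GTPase Cdc42, at 0.0504. Gpx1 had signals of 164709.8 in control females, 133891.8 in BBP females, 206846.8 in control males and 125855.9 in BBP males, the order of pools seen for Timm17a. A profile of 4 arrays holds few values, and likeness over them is a description only.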

How the data were processed

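RNA of splenocytes was pooled by sex and maternal exposure and hybridised to 1 Clariom D array per pool. The authors extracted the fluorescence with MAS 5.0 and scaled it between arrays, per their methods (MAS5 in the submitters' processing notes). The deposited signal intensities are linear and neither logged nor centred. No source used here gives the scaling target, detection calls, summarisation of clusters or genome build, so dim signals cannot be called present or absent and coordinates of clusters are not given.

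Of 72688 features, 65956 are transcript clusters. Symbols came from the annotation of the array platform, where 30646 clusters had 1 symbol, 2168 several and 33142 none, and clusters with several or none were left out. Of 354 symbols with more than 1 cluster, the one with the highest mean signal was kept. Chromosomes and promoter windows came from RefSeq (GRCm38.p6). Log2 ratios were computed from the signals with no pseudocount. Log2 signals of the 10615 genes that reached 100 on 2 or more arrays were modelled with limma 3.58.1 in R 4.3.3, with terms for exposure and sex and a variance trend. Benjamini-Hochberg adjustment ran over all these genes, with 0.05 as limit. This model leaves 1 residual degree of freedom and compares pools, not animals. It was tested on simulated data with independent noise and the same changes in both sexes. Shifts of whole arrays and differences between litters were not simulated. Tables were made with Python 3.11.15, numpy 2.4.6 and pandas 2.3.3 and figures with matplotlib 3.10.9.

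The members, the lists and the tests were chosen with earlier results of these data known. The genes named are all members, 9 further import genes (Tomm20, Tomm22, Tomm70a, Timm22, Timm44, Timm17b, Samm50, Chchd4 and Hspa9), the 4 other import genes with the lowest mean log2 BBP/control and the 4 with the highest, and the 5 nearest profiles. Tomm6, Tomm40l, Timm10b, Dnajc19, Immp2l, Mipep, Romo1, Agk, Timm21 and Pam16 were named after their values were seen. So were the markers Klf1, Gata1, Alas2, Slc4a1, Mki67, Rrm2 and Mcm2. A list of 13 genes of mitochondrial DNA had 0 genes with a cluster of their own. Alternatives were quantile normalization, median scaling, a pseudocount of 50, other signal filters, other clusters, limma with no trend and with a robust prior, no sex or exposure term, and leaving out each pool.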

Additional observations from a re-analysis of the deposited data

Results flagged for a closer look

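Among the import genes, 4 had ratios of opposite sign in the female and the male pair, as 27.8% of all genes tested did, counted by sign with no tolerance. Agk, Timm21 and Pam16 were higher in the female and lower in the male BBP pool, while for Tomm20 the female pools, at 468.4 and 468.5, hardly differed. The difference between the sexes was not tested for any of them. Log2 BBP/control of Tomm20, a receptor of the outer membrane gate, was 0.000308 in females and -0.269 in males. That of Agk, a lipid kinase that is also a subunit of the TIM22 complex, was 0.0369 in females and -0.137 in males. That of Timm21, which links the TIM23 complex to the outer membrane gate, was 0.25 in females and -0.62 in males. That of Pam16, a subunit of the import motor, was 0.11 in females and -0.72 in males. The Pam16 cluster used here carries chromosome 10 in its identifier, while RefSeq places the gene on chromosome 16. The Pam16 cluster on chromosome 16 had signals of 94.6 and 94.9 in control and BBP females, and 120.6 and 87.8 in control and BBP males, a log2 BBP/control of 0.00457 and -0.46.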

How the results depend on the processing

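The 9 measured genes were lower in both pairs under quantile normalization, a pseudocount of 50, no filter and other clusters, 8 were under median scaling (Timm9 being the exception), and 4 under a minimum signal of 200, which only 4 of them passed. The 1 gene at least 2-fold lower in both pairs became 0 under median scaling, a pseudocount of 50, the lowest-mean cluster and the cluster on the RefSeq chromosome, the last being chosen after seeing the data. The median log2 BBP/control of the measured genes ran from -0.31 to -0.12 in females and from -0.77 to -0.46 in males over these settings. Of the other import genes, 19 to 30 were lower in both pairs. In all settings run, 0 of them were called for exposure and 0 of the members for sex. Over all genes, the 298 calls for exposure became 177 under median scaling, 123 with a pseudocount of 50, and 0 under quantile normalization, without a filter, with a minimum of 200, without the sex term and, from 0 to 0, with any 1 pool left out. The main calls were 137 lower and 161 higher, and those after median scaling, which moved the median of all genes from -0.10 to 0.02 in females and from -0.15 to 0.02 in males, were 24 lower and 153 higher. The 66 calls for sex became 1 under quantile normalization, 42 with a pseudocount of 50, 4 without a filter, 3 without the exposure term, and 0 to 1 with a pool left out. The cause was not tested. The fits without a pool had 3 arrays and no second term, which would have left 0 residual degrees of freedom. Sex, the only link between pools, is already a term of the fit, and no pairing beyond it was possible because the labels give no replicate numbers.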
